A study of Rattus norvegicus with 12 samples.

Results

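The mu, theta and microsomal glutathione transferases were followed in the renal cortex of transplanted rat kidneys with and without the conjugate exporter MRP2. The members were 10 genes, namely Gstm1, Gstm2, Gstm4, Gstm5 and Gstm7 of the mu class, Gstt1 and Gstt2 of the theta class, and the microsomal genes Mgst1, Mgst2 and Mgst3. All probe sets whose platform gene symbol holds one of these names were taken. They came to 10 of 14217 named genes and 11 of 31042 probe sets on the array, 1 for each gene and 2 for Gstt2. No probe set was listed for more than 1 gene, and all 11 carried the plain _at suffix, which the manufacturer gives to sets not marked as shared within a gene family. The mu genes are close in sequence, and how far their transcripts cross-hybridize was not tested.

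Each of 12 arrays held RNA from the cortex of 1 kidney graft, with 6 wild-type grafts and 6 ABCC2-/- grafts, which lack MRP2. All recipients were wild type, and all samples were labelled male, so host cells in any graft carried the wild-type gene. The strain, the mutation, the age and the time after transplantation are not given in the sources used here, nor is it stated whether each graft had its own donor. The p-values therefore measure the spread between these grafts. Signals are linear array intensities without a unit, and a level of 1 probe set cannot be set against that of another.

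Glutathione transferases join the tripeptide glutathione to electrophilic compounds, among them drug metabolites and products of lipid peroxidation. The conjugates are then pumped out of the cell, and MRP2, encoded by Abcc2, is the pump for such conjugates in the apical membrane of the proximal tubule. The mu and theta enzymes are soluble, and the theta enzymes act on small halogenated compounds among others. The microsomal enzymes belong to a separate membrane protein family that also holds leukotriene C4 synthase. Several of these genes are known targets of NRF2, a transcription factor that binds antioxidant response elements.

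The 5 mu members lie in a run of 9 protein-coding genes on chromosome 2 of the GRCr8 gene table, all of them named as mu transferases, with Gstm5 at one end and Gstm4 at the other. Promoter sequences were listed by RefSeq (GRCr8) for 7 of the 10 genes, namely the 5 mu genes, Mgst1 and Mgst3. The 250 bases before the gene start are shown for 4 genes. Gstm5 had the lowest p of the members, Gstm7 varied with it across arrays, Mgst1 had the lowest p of the microsomal genes, and Mgst3 was the 1 member past the test of a difference between array sets. Sequences run 5′ to 3′ in the direction of the gene, and capitals mark matches to TGACNNNGC, the core of the antioxidant response element, on either strand. The windows are chr2:198219519-198219768 (plus strand) for Gstm5, chr2:198260320-198260569 (minus strand) for Gstm7, chr4:172760680-172760929 (plus strand) for Mgst1 and chr13:82080296-82080545 (minus strand) for Mgst3.
Gstm5: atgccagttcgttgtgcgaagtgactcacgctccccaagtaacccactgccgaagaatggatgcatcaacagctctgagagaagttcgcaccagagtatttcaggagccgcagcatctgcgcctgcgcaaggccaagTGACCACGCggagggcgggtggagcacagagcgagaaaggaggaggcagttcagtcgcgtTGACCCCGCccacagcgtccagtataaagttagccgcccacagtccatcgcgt
Gstm7: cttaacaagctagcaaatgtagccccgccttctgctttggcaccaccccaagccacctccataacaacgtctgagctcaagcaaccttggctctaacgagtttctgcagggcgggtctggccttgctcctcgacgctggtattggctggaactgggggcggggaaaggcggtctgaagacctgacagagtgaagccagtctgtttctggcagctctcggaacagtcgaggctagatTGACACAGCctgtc
Mgst1: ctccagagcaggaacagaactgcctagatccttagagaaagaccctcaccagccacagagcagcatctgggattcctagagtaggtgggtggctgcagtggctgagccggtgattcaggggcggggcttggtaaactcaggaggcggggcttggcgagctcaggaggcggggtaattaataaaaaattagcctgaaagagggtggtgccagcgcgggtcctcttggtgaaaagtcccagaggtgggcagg
Mgst3: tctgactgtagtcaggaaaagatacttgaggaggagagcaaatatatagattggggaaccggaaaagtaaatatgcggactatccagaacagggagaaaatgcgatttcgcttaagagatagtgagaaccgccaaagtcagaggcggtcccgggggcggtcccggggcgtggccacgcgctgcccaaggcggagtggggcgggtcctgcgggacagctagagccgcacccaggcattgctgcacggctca
Gstm5 held 2 matches, TGACCACGC starting 113 bases and TGACCCCGC starting 53 bases before the gene start. Gstm7 held 1 match, TGACACAGC, 14 bases before it. The other 5 member promoters, those of Mgst1 and Mgst3 included, held none. The same letters occurred in 10.1% of 33469 promoters of this length, so a match describes the sequence and is not a shown binding site.

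The labels and the tissue were checked first. Abcc2 lay between 0.787 and 0.987 in wild-type and between 0.0387 and 0.213 in deficient grafts, a 6.47-fold difference (limma, adjusted p = 8.35e-06). All 14 proximal tubule markers and all 13 markers of later nephron segments were above the level filter (a mean log2 signal at or above -2.53). Of the markers of liver, fat, muscle and adrenal 3 of 10 were above it, namely Adipoq, Lpl and Myh1. The muscle marker Myh1 was bright, with mean signals of 40.9 in wild-type and 49.3 in deficient grafts. The other muscle markers of that list, Acta1 and Ckm, were not above the filter, nor were the liver markers Alb and Apoa1. No marker of the 8 lists passed an adjusted p of 0.05 between genotypes. The mean log2 signal of the proximal tubule list lay between 4.90 and 5.14 in wild-type and between 4.83 and 4.94 in deficient grafts, and that of the macrophage and dendritic cell list between 0.92 and 1.22 and between 0.96 and 1.39. By exact permutation tests p was 0.0996 and 0.221. The lowest p of the 8 lists was that of the later nephron segments (loop of Henle to collecting duct), 0.0519, with a mean log2 signal between 2.27 and 2.54 in wild-type and between 2.19 and 2.43 in deficient grafts. Adjusted over 11 array measures, p lay between 0.290 and 0.652.

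A group of 3 deficient arrays stood apart in RNA measures and in some marker lists. The arrays are spoken of as array set 1, the first 3 listed of each genotype (wild-type replicates 1, 6 and 9, deficient replicates 5, 9 and 11), and array set 2, the last 3 listed (wild-type replicates 4, 7 and 8, deficient replicates 3, 10 and 14). The labels do not call these sets batches. The log2 ratio of the 3′ to the 5′ Gapdh control probe sets reflects how complete the labelled RNA is. A lower ratio means more 5′ signal beside the 3′ signal, so it is no mark of less complete RNA. The ratio lay between 0.36 and 0.45 in the deficient arrays of set 2 and between 0.71 and 0.95 in the other 9. The same ratio for beta-actin lay between 2.16 and 2.67 against 2.82 to 3.29. The markers of later nephron segments had a mean log2 signal between 2.19 and 2.24 in these 3 arrays, below all others. That of Adipoq, Lpl and Myh1, the genes above the filter in the liver, fat, muscle and adrenal list, lay between 2.12 and 2.14 there. All other arrays were lower, the highest at 2.11. The median log2 signal of these 3 arrays lay between -1.67 and -1.57, against -1.77 to -1.70 in the others. Differences within set 2 include this shift, from a mean of -1.74 in the wild-type to -1.62 in the deficient arrays. Genotype differences of the members are therefore also given within each set and without these 3 arrays. Leaving them out sets deficient arrays of set 1 alone against wild-type arrays of both sets, so genotype and array set are mixed in that comparison.

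Over all 12 arrays no transferase passed the test of a difference between genotypes, and most of the differences were positive and small. Of the 11 probe sets 10 were above the level filter and were tested, and Mgst2 was not. The log2 difference, deficient minus wild type, was positive in 9 of the 10 and negative in 1, with a median of 0.20, against a median of -0.023 and a positive difference in 45.4% of all 18625 tested probe sets. In limma 0 members passed an adjusted p of 0.05, against 0.0215% of all probe sets, and their adjusted p lay between 0.606 and 0.993. At an unadjusted p under 0.05 the count was 1 member, Gstm5, against 7.98% of all probe sets. It was higher in deficient grafts, as were 3.35% of all probe sets at that level, and 0 members were lower, against 4.63%. Without the 3 arrays of low Gapdh ratio the difference was positive in 6 of the 10, and 0 members had an unadjusted p under 0.05. The shares of all probe sets were not counted for that fit, so these counts have no background beside them. In none of the 11 probe sets were the genotypes without overlap. All deficient arrays lay above all wild-type arrays in 0.161% of all tested probe sets. In whole cortex a change in the number of cells that express a gene and a change in RNA per cell cannot be told apart.

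**Figure D1:**
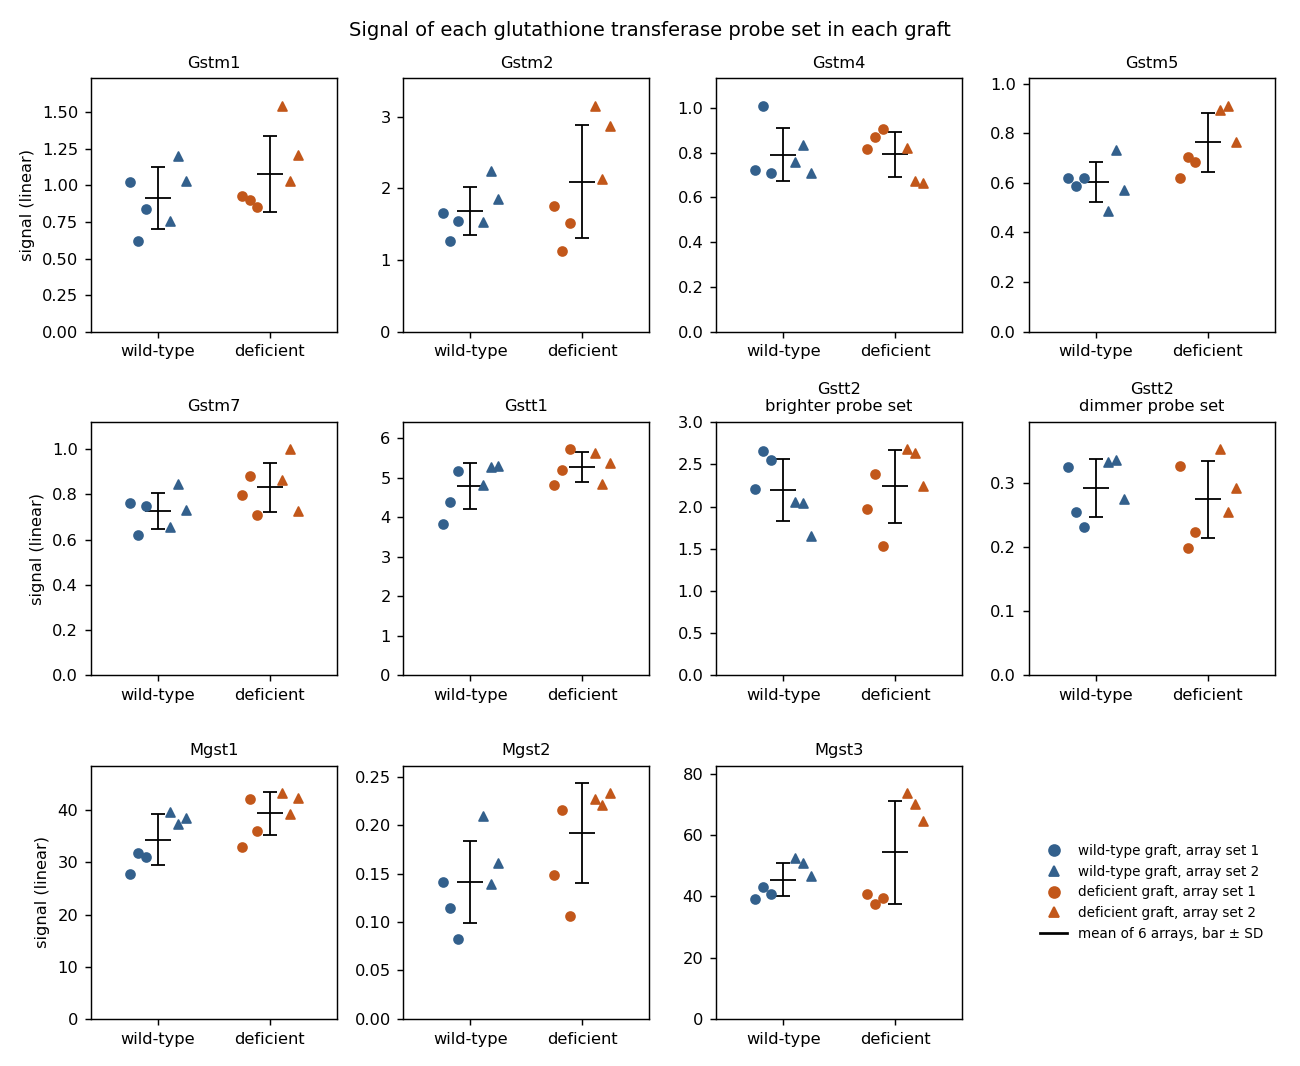
Linear signal (y axis, from 0) of each of the 11 probe sets in wild-type and deficient grafts, 1 point per array, with circles for array set 1, triangles for array set 2 and the mean ± SD of 6 arrays. The deficient arrays of set 2 are the highest in Mgst3, between 64.4 and 73.7, and the genotypes overlap in every panel.

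Of the mu class, which holds soluble enzymes, Gstm5 had the largest difference. Its signal ran from 0.487 through a median of 0.603 to 0.731 in wild-type grafts and from 0.620 through 0.734 to 0.912 in deficient grafts. The 6 deficient arrays all lay above the wild-type median, and 3 of them, deficient replicates 3, 10 and 14, above every wild-type array. The means were 0.603 ± 0.0798 (SD, n = 6) and 0.763 ± 0.118 (SD, n = 6), and the fitted difference was 1.26-fold (log2 0.34, SE 0.13, 95% confidence interval of the fold 1.05 to 1.52). This had an unadjusted limma p of 0.0173 and an adjusted p of 0.606. The log2 difference was 0.13 in array set 1 and 0.54 in array set 2, and without the 3 arrays of low Gapdh ratio it was 0.16 (SE 0.14, unadjusted p = 0.275).

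Gstm1 and Gstm2, neighbours on chromosome 2, were highest in the same array. Gstm1 ran from 0.621 through a median of 0.929 to 1.20 in wild-type grafts and from 0.850 through 0.981 to 1.55 in deficient grafts. Gstm2 ran from 1.27 through 1.60 to 2.25 and from 1.13 through 1.94 to 3.16. Deficient replicate 3 held the highest value of both genes, and the genotypes overlapped broadly. The log2 differences were 0.24 (SE 0.17) for Gstm1 and 0.25 (SE 0.21) for Gstm2, with adjusted p of 0.651 and 0.692, intervals that span 0. They were 0.14 and -0.036 in array set 1 and 0.35 and 0.53 in array set 2. Without the 3 arrays of low Gapdh ratio they were 0.0035 and -0.20.

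Gstm7 and Gstm4, 2 further mu transferases, differed from each other in their values. Gstm7 ran from 0.618 through a median of 0.739 to 0.843 in wild-type and from 0.708 through 0.832 to 0.999 in deficient grafts, and 3 deficient arrays were above every wild-type array. Its log2 difference was 0.19 (SE 0.11, adjusted p = 0.637), with values of 0.17 in array set 1, 0.21 in array set 2 and 0.13 without the arrays of low Gapdh ratio. Gstm4 ran from 0.709 through 0.742 to 1.01 and from 0.666 through 0.820 to 0.907, so that its highest and lowest values lay in opposite genotypes. Its log2 difference was 0.0041 (SE 0.12, 95% interval -0.25 to 0.26, adjusted p = 0.993), which leaves room for a difference of either sign. It was 0.10 in array set 1, -0.097 in array set 2 and 0.14 without the arrays of low Gapdh ratio.

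The theta class held Gstt1 and Gstt2, which lie on chromosome 20 with Gstt4 and Rps28-ps4 between them. Gstt1 ran from 3.82 through a median of 4.98 to 5.28 in wild-type grafts and from 4.82 through 5.27 to 5.72 in deficient grafts. The 2 lowest arrays, wild-type replicates 1 and 6, were both of array set 1, and every other array lay at 4.80 or above. The log2 difference of Gstt1 was 0.14 (SE 0.09, adjusted p = 0.639), with 0.24 in array set 1, 0.041 in array set 2 and 0.14 without the arrays of low Gapdh ratio.

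The 2 probe sets of Gstt2 did not show the same pattern. The brighter one ran from 1.65 through 2.13 to 2.66 in wild-type and from 1.53 through 2.31 to 2.68 in deficient grafts (log2 difference 0.020, SE 0.14, adjusted p = 0.968). The dimmer one ran from 0.232 through 0.30 to 0.336 and from 0.198 through 0.274 to 0.353 (log2 difference -0.11, SE 0.18, adjusted p = 0.837). The near-zero difference of the brighter set was the mean of opposite values, -0.36 in array set 1 and 0.40 in array set 2. In the dimmer set both were negative, -0.14 and -0.075. Without the arrays of low Gapdh ratio the difference was -0.17 in the brighter and -0.25 in the dimmer set.

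Of the microsomal enzymes, Mgst1, a transferase and peroxidase of the endoplasmic reticulum and the outer mitochondrial membrane, ran from 27.7 through a median of 34.6 to 39.7 in wild-type grafts and from 33.0 through 40.7 to 43.3 in deficient grafts. Its values separated the wild-type arrays by set, with 27.7, 31.9 and 31.0 in set 1 and 39.7, 37.4 and 38.6 in set 2. The deficient values were 33.0, 42.2 and 36.1 in set 1 and 43.3, 39.2 and 42.4 in set 2. Within set 1 every deficient array was above every wild-type array, which held for 4.68% of all tested probe sets. The fold over all arrays was 1.15 (log2 0.20, SE 0.10, 95% interval of the fold 0.991 to 1.33, unadjusted p = 0.0642, adjusted p = 0.628). With the array set as a block the difference stayed at 0.20 and the unadjusted p was 0.00668 (adjusted p = 0.121), in a fit where 19.5% of all probe sets were at an unadjusted p under 0.05. The difference was 0.29 in set 1 and 0.11 in set 2 (unadjusted p = 0.168). With the Gapdh ratio as a covariate it was 0.12 (unadjusted p = 0.273). With that ratio beside the array set as a block it was 0.24 (limma, unadjusted p = 0.0106, adjusted p = 0.329). Without the 3 arrays of low ratio it was 0.11 (SE 0.12, unadjusted p = 0.358).

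Mgst2, which also makes leukotriene C4, was dim, with a mean log2 signal of -2.66, under the level filter. Its signal ran from 0.0828 through 0.140 to 0.209 in wild-type and from 0.106 through 0.218 to 0.233 in deficient grafts, and no array was under the floor set on low values, 0.0694. The deficient arrays of set 2, at 0.227, 0.221 and 0.233, were above all wild-type arrays, as was deficient replicate 9 at 0.216. Tested without the level filter, its log2 difference was 0.45 (SE 0.25, adjusted p = 0.722), and the differences of the log2 means were 0.45 in array set 1 and 0.44 in array set 2.

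Mgst3, a microsomal enzyme with transferase and peroxidase activity, ran from 39.1 through a median of 44.7 to 52.4 in wild-type and from 37.4 through 52.6 to 73.7 in deficient grafts. The deficient arrays formed groups apart, with 40.8, 37.4 and 39.4 in set 1 and 73.7, 70.2 and 64.4 in set 2. The wild-type arrays were at 39.1, 42.9 and 40.7 in set 1 and at 52.4, 50.9 and 46.5 in set 2. The means over 6 arrays, 45.4 ± 5.46 (SD) and 54.3 ± 16.9 (SD), therefore describe no single array well, and the log2 difference of 0.21 (SE 0.17) had an adjusted p of 0.681.

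**Figure D2:**
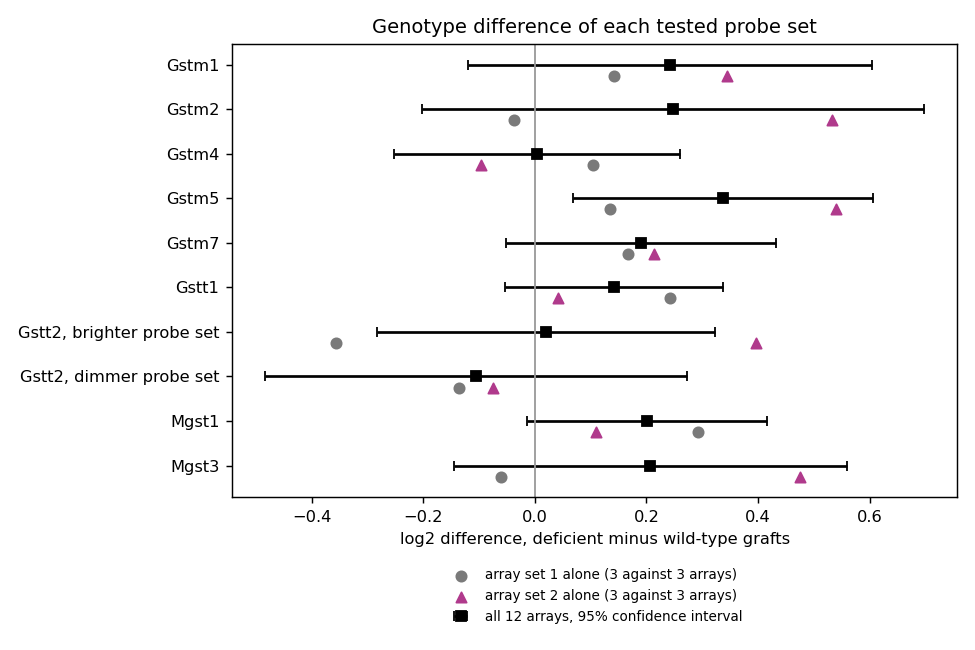
Log2 difference, deficient minus wild-type grafts (x axis), of the 10 tested probe sets, with squares and 95% confidence intervals for all 12 arrays, circles for array set 1 and triangles for array set 2. The interval of Gstm5 alone excludes 0 before adjustment, and Mgst3, Gstm2 and the brighter Gstt2 probe set differ most between the sets.

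The genotype difference of Mgst3 was not the same in both array sets. It was -0.060 (SE 0.057) in set 1, with an unadjusted p of 0.311, and 0.48 (SE 0.08), a 1.39-fold higher signal in deficient grafts, in set 2. In set 2 Mgst3 was the 1 member past the threshold (limma, adjusted p = 0.00761), where 6.39% of all probe sets passed. The difference between the sets was 0.54 (SE 0.10) and passed the interaction test (adjusted p = 0.00901), as did 2.54% of all 18625 probe sets. After centring each array on its median it was 0.41 (adjusted p = 0.0256). The 3 arrays that carry it are those of low Gapdh ratio. With that ratio as a covariate the difference between the sets was 0.60 with an adjusted limma p of 0.304. The ratio was low only in the deficient arrays of set 2, so this fit cannot well separate the ratio from that difference. Without the covariate and without an assumed mean-variance trend the adjusted p was 0.0654. Without the 3 arrays the log2 difference of Mgst3 over the other 9 was -0.20 (SE 0.10, unadjusted p = 0.0582). In the deficient grafts of set 2 the Mgst3 signal and the RNA measures stood apart together. Wild-type Mgst3 was also higher in set 2, between 46.5 and 52.4 against 39.1 to 42.9 in set 1. The wild-type Gapdh ratios lay between 0.71 and 0.91 in set 2 and between 0.81 and 0.87 in set 1. In these deficient grafts of set 2 the markers of later nephron segments were lowest too. The mean of Adipoq, Lpl and Myh1 was highest there by a small margin, 2.115 or above against at most 2.112 elsewhere. No liver or adrenal gene entered that mean. The part of RNA quality or cell makeup in the Mgst3 signal was not tested beyond these fits.

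**Figure D3:**
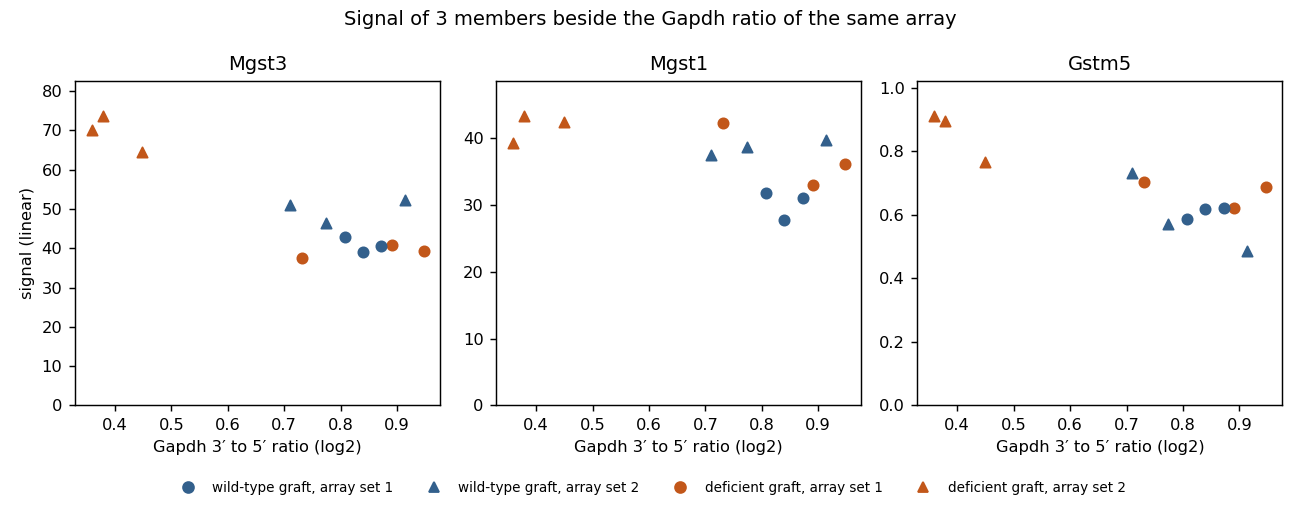
Linear signal (y axes, from 0) of Mgst3, Mgst1 and Gstm5 against the log2 Gapdh 3′ to 5′ ratio of the same array (x axes), with colours for genotype and circles and triangles for array sets 1 and 2. The 3 deficient arrays of set 2 lie alone at ratios between 0.36 and 0.45, at the highest Mgst3 and Gstm5 values, while Mgst1 there lies between 39.2 and 43.3, beside deficient replicate 9 at 42.2.

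For the other members the interaction did not pass the threshold, and 3 members in all, Mgst3 included, had an unadjusted interaction p under 0.05, against 18.2% of all probe sets. The difference between the sets was positive, that is higher in set 2, in 7 of the 10 tested members and in 56.4% of all probe sets. The brighter Gstt2 probe set had the largest difference between sets, 0.75 (SE 0.20, unadjusted p = 0.00213, adjusted p = 0.0636). Its wild-type values were 2.21, 2.66 and 2.56 in set 1 and 2.05, 2.04 and 1.65 in set 2, whereas its deficient values were 1.97, 2.38 and 1.53 and then 2.68, 2.64 and 2.24. Gstm2 had 0.57 (SE 0.26, unadjusted p = 0.0437, adjusted p = 0.258). In set 1 the median log2 difference of the members was 0.12, against -0.046 over all probe sets, and 2 members had an unadjusted p under 0.05, against 11.5%. They lay in opposite directions, with Mgst1 at 0.29 and the brighter Gstt2 set at -0.36, and neither passed after adjustment. In set 2 the medians were 0.28 and 0.0023, and 4 members had an unadjusted p under 0.05, against 24.6%. There 3 of the 10 tested members, Gstm5, the brighter Gstt2 set and Mgst3, had every deficient array above every wild-type array, which held for 15.2% of all tested probe sets.

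Members varied together in part across the 12 arrays after the genotype means were removed, which is a description of arrays that share their RNA quality and array set. Of 36 pairs of member genes, each by its brighter probe set, 26 had a positive Pearson correlation and 5 had one above 0.6. Gstm1 and Gstm2 had the highest, r = 0.85 (Spearman rho = 0.92). With the mean of each genotype within each array set removed, called set means here, r was 0.77. Gstm5 and Gstm7, the pair with motif matches printed above, had r = 0.67 (rho = 0.62) and 0.72 with the set means removed. Gstm2 and Mgst3 had r = 0.81 (rho = 0.78), and 0.033 with the set means removed, so that pair shared the step between array sets. Gstm4 correlated negatively with the other 4 mu genes over all arrays, with r between -0.48 and -0.20. With the set means removed these were -0.16 with Gstm1, -0.060 with Gstm2, 0.23 with Gstm5 and -0.26 with Gstm7.

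The genes most like 3 of the members over the 12 arrays, by Pearson correlation with genotype means removed among 10639 genes, were as follows. For Gstm5 they were the sulfotransferase gene Sult1a1 (r = 0.92), Ramp3, which encodes a receptor activity-modifying protein (r = 0.91), and Prkcsh, a subunit of glucosidase II (r = 0.90). For Gstt1 they were Ccdc107, Ssh1 and Paqr4, with r between 0.82 and 0.84. For Mgst1 they were the kinesin gene Kif5c (r = 0.96), Alas1, the first enzyme of heme synthesis (r = 0.94), and Gpx4, which reduces lipid peroxides (r = 0.93). With the set means removed as well, r for these 9 genes lay between 0.79 and 0.96. Each is the top of a search over many genes in 12 arrays, and no test was made.

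Around these transferases, a list of 61 names of other genes of glutathione conjugation was read from the same fit, of which 44 were tested. None passed the adjusted threshold, where 0.0188% of 10639 genes did. At an unadjusted p under 0.05, 4 genes were higher and 0 lower in deficient grafts, against 2.34% and 5.30% of all genes. The difference was positive in 27 of the 44 and in 41.4% of all genes, with medians of 0.064 and -0.041. The 4 were Gsta3 and Gstp1, an alpha and the pi class transferase, Abcc4, which encodes the export pump MRP4, and Hmox1, the inducible heme oxygenase. Gsta3 lay between 0.623 and 0.974 in wild-type and between 1.07 and 2.24 in deficient grafts, without overlap, as in 0.161% of all tested probe sets in this direction. Its log2 difference was 0.93 (SE 0.17, adjusted p = 0.161), with 1.08 in array set 1 and 0.79 in array set 2.

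**Figure D4:**
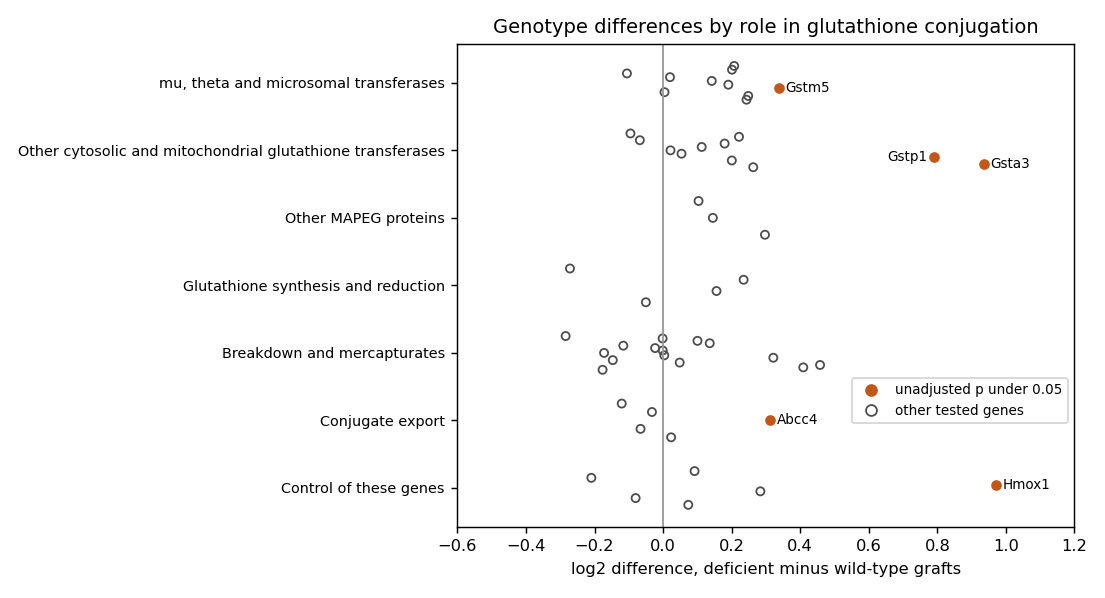
Log2 difference, deficient minus wild-type grafts (x axis), of the 10 tested member probe sets and of 44 other tested genes grouped by role (rows, with points spread vertically for legibility), with filled points for an unadjusted p under 0.05. The members lie between -0.11 and 0.34, while Gsta3, Gstp1 and Hmox1 lie between 0.79 and 0.97.

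By role, the counts were as follows, and no difference between roles was tested. Of 11 tested other soluble and mitochondrial transferases, 9 had a positive difference (median 0.18), and 2 of them had an unadjusted p under 0.05. Gstp1 lay between 10.7 and 27.8 in wild-type and between 23.9 and 45.1 in deficient grafts (log2 difference 0.79, SE 0.19, adjusted p = 0.560). For Gstt3, another theta enzyme, the log2 difference was 0.18 (SE 0.09, adjusted p = 0.628). All 3 tested proteins of the microsomal enzyme's family, Ltc4s, Alox5ap and Ptges, had a positive difference, and none had an unadjusted p under 0.05. Genes of glutathione synthesis had 2 positive and 2 negative differences, and those of conjugate breakdown 7 and 8, with medians of 0.053 and -0.00096. Genes of conjugate export had 2 positive and 3 negative differences (median -0.032), and those that control these genes 4 and 2 (median 0.083). Among the genes next in order of p were Ggt5 (0.41, SE 0.20), Gsta1 (0.26, SE 0.13), Kyat1 (-0.28, SE 0.14) and Clic1 (0.22, SE 0.11), with adjusted p between 0.625 and 0.627.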

How the data were processed

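RNA of renal cortex was labelled with biotin and hybridised to Affymetrix 3′ arrays, 1 per graft, per the labels' protocols. The deposited values are linear intensity signals of 31099 probe sets, and per the submitters' processing notes MAS5 and GCOS were used (no version named). Low values stand at 0.01 in the deposited table (3.56% of values). The sources used here do not give what scaled each array. Groups and replicate numbers came from the sample titles.

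Values were set to at least the pooled 20th percentile (0.0694) before log2, which understates changes of dim probe sets. The 57 control probe sets were left out, and 18625 probe sets whose mean reached the 40th percentile of means were fitted with limma 3.58.1 in R 4.3.3 (lmFit, eBayes with trend, genotype as factor, Benjamini-Hochberg over all of them). The arrays were not normalized further. A second fit held genotype, array set and their interaction. The fit was tested on simulated data. Exact permutation tests (two-sided) compared array measures. Precision is limited by 6 arrays per genotype.

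Probe sets were named from the platform annotation, with 20826 to 1 gene, 436 to several and 9780 not listed, and updated to GRCr8 symbols. A listed gene is its probe set with the highest mean. In the list of 61 names Ccbl1 is an older name of Kyat1. Named genes were all members, Abcc2, up to 8 list genes of lowest p, and for the lowest-p member of each class the 3 genes of highest correlation. Gstt3 was added for comparison after its values were seen, as were Ltc4s, Alox5ap and Ptges. Members, lists and alternatives were chosen with earlier results of these data known.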

Additional observations from a re-analysis of the deposited data

Results flagged for a closer look

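In array set 2 the genotype difference of Mgst3 exceeded that in array set 1 by 0.536 on the log2 scale (SE 0.10, limma interaction term, adjusted p = 0.00901). The arrays behind it are deficient replicates 3, 10 and 14, whose Gapdh and beta-actin ratios were below those of all other arrays.

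Of 44 groups of arrays checked for a value apart from the rest, where chance flags about 1 in 20, 2 held one. The mean log2 signal of the proximal tubule markers was 5.14 (5.145) in wild-type replicate 4, above the other wild-type grafts, and that of the erythrocyte markers was 0.303 (0.3028) in deficient replicate 14, below the other deficient grafts. None of the 22 groups of member values held such a value, although Mgst3 in deficient grafts fell into 2 groups of 3 arrays.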

How the results depend on the processing

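No paired analysis was possible because the genotypes share only 1 replicate number. Of 27 alternatives 26 gave a value for Abcc2, all signals of which become equal with values below 1 set to 1, and in these 26 it kept its direction and its call (log2 difference -3.01 to -2.40). Of 266 member differences under the alternatives 238 kept direction and side of the threshold, 27 turned sign and 1 passed newly, Mgst3 in array set 2 alone. Gstm1, Gstm5, Gstm7, Gstt1, Mgst1 and the dimmer Gstt2 probe set did not turn in any alternative that could be fitted. The signs turned in array set 1 alone for Gstm2 (-0.036), the brighter Gstt2 probe set (-0.36) and Mgst3 (-0.060), in array set 2 alone for Gstm4 (-0.097), and with the Gapdh ratio as a covariate for Gstm2 (-0.067), Gstt2 (-0.14) and Mgst3 (-0.092). They turned without the 3 arrays of lowest Gapdh ratio, an alternative chosen after seeing the data, for Gstm2 (-0.20), Gstt2 (-0.17) and Mgst3 (-0.20). They turned with arrays centred on their median for Gstm4 (-0.052) and Gstt2 (-0.036), with values below 1 set to 1 for Gstm4 (-0.0027), with array weights for Gstt2 (-0.081) and with the Gapdh ratio beside the array set for Gstt2 (-0.30). With 1 array left out Gstm4 lay between -0.037 and 0.077 and the brighter Gstt2 set between -0.058 and 0.12.

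The count of all probe sets past the threshold, 4, became 2 with values below 1 set to 1, 112 with the array set as a block and 1190 in array set 2 alone, where the count of members became 1. Gstm5, Gstm7 and the dimmer Gstt2 set could not be fitted with values below 1 set to 1, nor the dimmer Gstt2 set with the level filter at the median. The count of members at an unadjusted p under 0.05, 1, became 0 with values below 1 set to 1, with the Gapdh ratio in the fit and without the 3 arrays of lowest ratio, 2 with array weights and in array set 1 alone, 3 with the array set as a block with or without the Gapdh ratio, and 4 in array set 2 alone. The 3 were Gstm5, Mgst1 and Mgst3 with the block alone, all higher. With the Gapdh ratio added they were Gstt1, Mgst1 and the brighter Gstt2 set, the last of these lower. The count lay between 1 and 2 with 1 array left out, with 2 without wild-type replicate 4 or 8 or deficient replicate 5 or 9. Of the listed pathway genes, 4 higher became 10 with the array set as a block, 11 in array set 2 alone and 7 with the Gapdh ratio beside the block, and 4 to 10 with 1 array left out (7 without wild-type replicate 4, 10 without deficient replicate 9). The 0 lower became 1 with centring or array weights, 2 with the block or in array set 1 alone, and 6 in array set 2 alone. This count became 3 with the Gapdh ratio beside the block and 0 to 2 with 1 array left out. Over all probe sets, calls at this unadjusted level rose from 7.98% to 19.5% with the block and 24.6% in array set 2 alone. In array set 1 alone the share was 11.5%. For the other alternatives no such share was counted, for members and pathway genes alike. The number of members whose difference differed between the sets, 1, became 0 without a trend or with the Gapdh ratio, 2 with array weights, and 1 to 2 with 1 array left out. For Mgst3 that difference was 0.54 without a trend (adjusted p = 0.0654) and 0.60 with the Gapdh ratio (adjusted p = 0.304), and 0.49 to 0.59 with 1 array left out. The cause of these changes was not tested.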

Other observations

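Probe sets of 3 further relatives of the mu and theta genes were on the array and were no members. Gstt3 was the bright one, at 47.8 ± 5.57 (SD, n = 6) in wild-type and 54.1 ± 5.44 (SD, n = 6) in deficient grafts. Gstm3, which lists Gstm4 among its older names, was under the floor of 0.0694 in 6 of 12 arrays, and Gstm6l in 9 of 12, and neither was tested.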
